A study of Rattus norvegicus with 35 samples.

Results

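The major histocompatibility complex (MHC) class II genes of the rat and their regulator were followed across liver RNA from 35 rats: RT1-Bb, RT1-Ba, RT1-Da, RT1-Db1, Cd74 and Ciita. These 6 genes were taken from a list, and all 12 probe sets annotated to them were used, of 31042 probe sets tested and 14217 genes named in all. A probe set is a group of short DNA probes on the array that read the same transcript. RT1-Bb had been chosen on its measured values, which spread widely between rats, so its spread is given below as a description without a test.

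The liver was from male Harlan Sprague Dawley rats that were 7 weeks of age when dosing began. They received the brominated flame retardant 1,2-bis(2,4,6-tribromophenoxy)ethane (BTBPE) in corn oil by gavage on 5 days, and the left liver lobe was taken the day after the last dose. The 6 groups were a vehicle group on corn oil alone and dose groups at 0.07 and 0.69 mg/kg, at 6.88 and 68 mg/kg, and at 680 mg/kg, with 6 rats per group and 5 at 68 mg/kg. Each array is counted as 1 rat, since the labels speak of replications without saying how the samples were drawn, and p-values measure the spread between these samples.

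MHC class II molecules are pairs of an alpha and a beta chain that carry peptides to the surface of macrophages, dendritic cells and B cells, where CD4+ T cells read them. In the rat, RT1-Ba and RT1-Bb encode the alpha and beta chain of the B molecule, and RT1-Da and RT1-Db1 those of the D molecule. Cd74 encodes the invariant chain, which escorts both molecules through the cell, and Ciita encodes the coactivator that class II promoters need. Class II chains are among the most polymorphic genes of a mammal, and the Sprague Dawley rat is an outbred stock. No genotypes are part of the data analysed here. In the resident macrophages of the liver, the Kupffer cells, class II is part of normal function, whereas hepatocytes carry little of it.

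The class II promoters share short boxes at which the RFX, CREB and NF-Y factors assemble before CIITA joins them, and these boxes are shown here because the chains and Cd74 are compared as one group below. The windows are from RefSeq on assembly GRCr8, read 5′ to 3′ on the strand of the gene, and 5 of the 6 genes had an entry. The positions are chr20:4604143-4604232 (minus strand) for RT1-Bb, chr20:4576961-4577050 (plus) for RT1-Ba, chr20:4515313-4515402 (plus) for RT1-Da, chr20:4560206-4560295 (minus) for RT1-Db1 and chr18:56526967-56527056 (plus) for Cd74. All 5 windows lie upstream of the annotated transcription start. Capitals mark matches to a long form of the Y box (CTGATTGG), to its core (ATTGG, or CCAAT on the other strand) and to an X box form (CAACNGATG).
RT1-Bb: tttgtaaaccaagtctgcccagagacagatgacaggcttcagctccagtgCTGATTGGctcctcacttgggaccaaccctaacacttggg
RT1-Ba: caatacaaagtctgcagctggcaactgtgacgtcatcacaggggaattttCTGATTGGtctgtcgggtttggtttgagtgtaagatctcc
RT1-Da: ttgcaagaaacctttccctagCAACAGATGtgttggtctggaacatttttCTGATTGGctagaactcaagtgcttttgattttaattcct
RT1-Db1: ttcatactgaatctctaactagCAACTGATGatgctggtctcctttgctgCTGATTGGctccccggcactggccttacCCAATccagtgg
Cd74: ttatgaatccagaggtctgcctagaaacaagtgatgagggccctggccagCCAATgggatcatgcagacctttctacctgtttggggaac

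The long Y box form stood in the promoters of RT1-Bb, RT1-Ba, RT1-Da and RT1-Db1, with its first base 64, 46, 52 and 83 bases before the start. Of 33469 rat promoters of the same length (250 bases before to 50 after the start), 3.5% held that form on either strand. Every long form contains the core, which 37.5% of promoters held, and Cd74 had the core alone, on the other strand. The X box form was found in RT1-Da and RT1-Db1 and in 0.586% of promoters. These are matches of letters and say nothing of whether a factor was bound.

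The tissue check placed hepatocyte transcripts at the top of the scale: the albumin gene Alb read 14.23 to 14.44 (log2) over the 35 rats, against 14.44 for the highest value in the table, and the arrays correlated with each other at 0.9905 to 0.9964. Array medians were 4.71 to 4.79. A value below the lowest of these medians is called dim here, because the table has no detection calls and such a value cannot be told from background. Markers of Kupffer cells and other macrophages were all above that level, with 0 of 16 dim on average, while 8 of 12 B cell markers, 11 of 18 T and NK cell markers and 5 of 11 dendritic cell markers were dim.

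RT1-Bb, the beta chain of the B molecule, fell into separate high and low sets of rats on probe set 1371033_at. In the vehicle group the values were 6.13, 3.79, 3.25, 6.86, 2.91 and 3.17 (log2, replicates 1 to 6). At 0.07 mg/kg they were 5.94, 3.21, 3.57, 6.11, 3.92 and 3.32, and at 0.69 mg/kg 7.29, 3.39, 3.46, 3.59, 3.55 and 3.57. At 6.88 mg/kg they were 3.47, 3.06, 6.13, 7.20, 5.43 and 3.36. High and low rats thus sat side by side within the vehicle group and within each of these doses. At 68 mg/kg all 5 rats were low, at 3.40, 3.76, 3.47, 3.23 and 3.63, and at 680 mg/kg the values were 3.19, 5.85, 5.50, 3.38, 3.34 and 3.32.

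No rat lay between 3.92 and 5.43, a gap of 1.504 that took up 34.3% of the whole range of the probe set. Above the gap were 10 rats: vehicle replicates 1 and 4, replicates 1 and 4 at 0.07 mg/kg, replicate 1 at 0.69 mg/kg, replicates 3, 4 and 5 at 6.88 mg/kg, and replicates 2 and 3 at 680 mg/kg. The other 25 rats all read below the lowest array median, so that RT1-Bb was not shown above background in them by this probe set. The second RT1-Bb probe set, 1371065_at, was dim in all 35 rats (3.34 to 4.26) and had no such gap, its widest being 0.09. The division of the rats was thus seen on only 1 of the 2 RT1-Bb probe sets. On the other, dim throughout, 2 of the 10 rats were among its 10 highest and 6 among its 10 lowest. Its values followed Cd74 from rat to rat, as given below, so it was not without signal. What its signal reads was not tested.

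**Figure D1:**
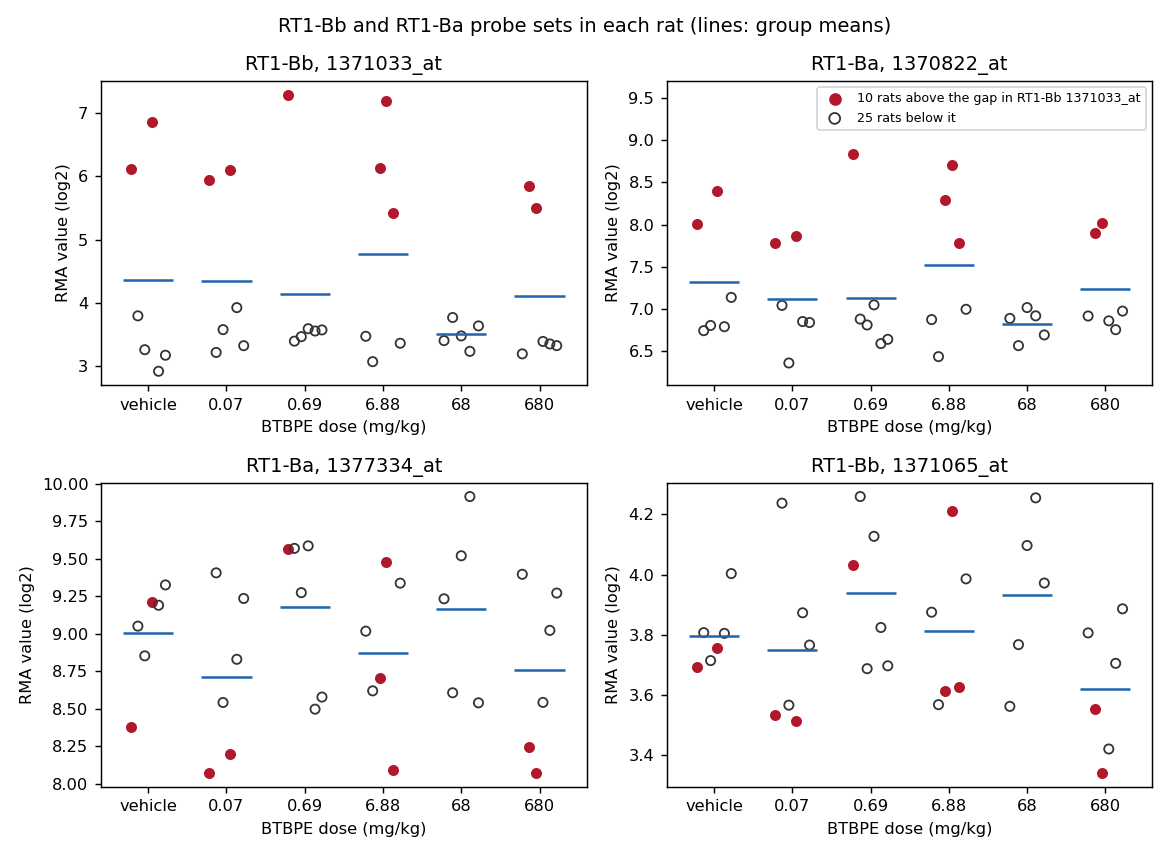
RMA values (log2, vertical axes) of 2 RT1-Bb and 2 RT1-Ba probe sets in each rat, by BTBPE dose in mg/kg (horizontal axes). Filled points are the 10 rats above the gap of RT1-Bb 1371033_at, open points the other 25, and lines are group means. The filled points lie above all open points for RT1-Bb 1371033_at and RT1-Ba 1370822_at, while they mix with the open points for RT1-Ba 1377334_at and RT1-Bb 1371065_at.

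RT1-Ba, the alpha chain that pairs with RT1-Bb and its direct neighbour on chromosome 20, divided the rats in the same way on probe set 1370822_at. The 10 rats read 7.78 to 8.83 and the other 25 read 6.36 to 7.14, with a gap of 0.64 between the sets. All 35 of these values were above the array medians, so both sets were measured. Of all 31042 probe sets, only these RT1-Bb and RT1-Ba probe sets placed the same 10 rats above all others, and 0 placed them below all others.

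The RT1-Ba probe set of highest mean, 1377334_at, showed the division only once the rats' overall class II level was taken into account, and then in the opposite direction. Its raw values overlapped, at 8.07 to 9.57 in the 10 rats and 8.50 to 9.91 in the other 25. For each rat, the deviation of Cd74 from its own mean was then subtracted from the deviation of the RT1-Ba probe set from its mean. On this scale 1377334_at lay between -0.78 and -0.48 in the 10 rats and between 0.09 and 0.43 in the 25, with no overlap. On the same scale only 3 of 31042 probe sets separated these rats, 2 higher (RT1-Bb 1371033_at and RT1-Ba 1370822_at) and 1 lower (RT1-Ba 1377334_at). Among them RT1-Bb 1371033_at had drawn the sets itself. So 1 gene, RT1-Ba, had one probe set relatively higher and another relatively lower in the same animals. The rats were divided by RT1-Bb's own values, and these ranges carry no test. Whether the division follows the alleles of the rats was not tested.

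**Figure D2:**
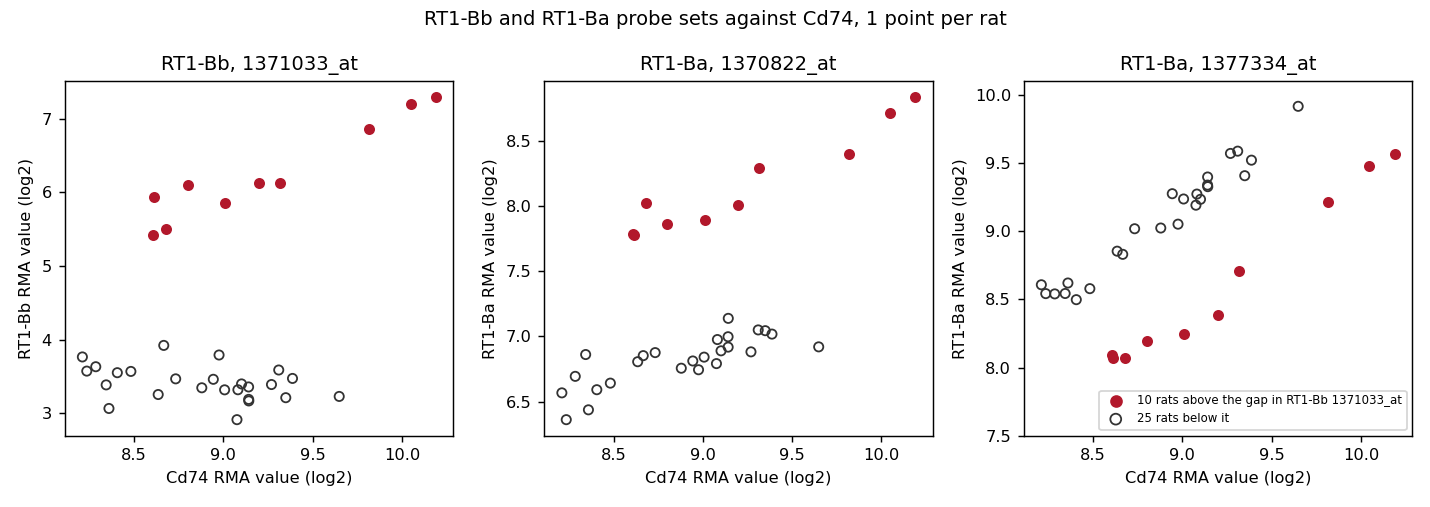
RMA values (log2) of RT1-Bb 1371033_at, RT1-Ba 1370822_at and RT1-Ba 1377334_at (vertical axes) against Cd74 (horizontal axes), with 1 point per rat. The 10 filled points, those above the RT1-Bb gap, form a band above the 25 open points for the first and second probe sets and a band below them for the third.

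The remaining RT1-Ba probe sets showed neither division. Probe set 1392334_at ran from 6.40 to 6.98 and 1381593_x_at from 6.20 to 6.77 over all rats, and in both the 10 rats lay among the others. The suffix x marks probes that can also bind other transcripts, so the second of these is uncertain as a reading of RT1-Ba.

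On their representing probe sets the chains of the D molecule did not divide the rats. RT1-Da, its alpha chain, read 8.60 to 10.45 in the 10 rats and 8.38 to 9.84 in the 25. Relative to Cd74 it lay between -0.15 and 0.12 in the former and between -0.16 and 0.18 in the latter, so the sets overlapped. RT1-Db1, its beta chain, likewise overlapped on probe set 1370383_s_at, at -0.08 to 0.32 and -0.18 to 0.15. The suffix s marks probes shared by several transcripts, and RT1-Db2 lies beside RT1-Db1 on chromosome 20, so this signal may be a sum over both.

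The other RT1-Db1 probe set, 1370382_at, was high in 3 rats. Vehicle replicate 4 read 4.82, replicate 1 at 0.69 mg/kg read 5.53 and replicate 4 at 6.88 mg/kg read 5.37. The other 32 rats read 3.56 or less and were dim on this probe set. All 3 are among the 10 rats above the RT1-Bb gap, and among those 10 they had the highest Cd74, at 9.82, 10.19 and 10.05. Replicate 4 at 68 mg/kg lay below the RT1-Bb gap and had a Cd74 value of 9.65, and there 1370382_at read 3.18. Of the 10 rats above the RT1-Bb gap, 9 were among its 10 highest, and its values were 2.93 to 5.53 in the 10 and 2.42 to 3.18 in the 25, which overlap.

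**Figure D3:**
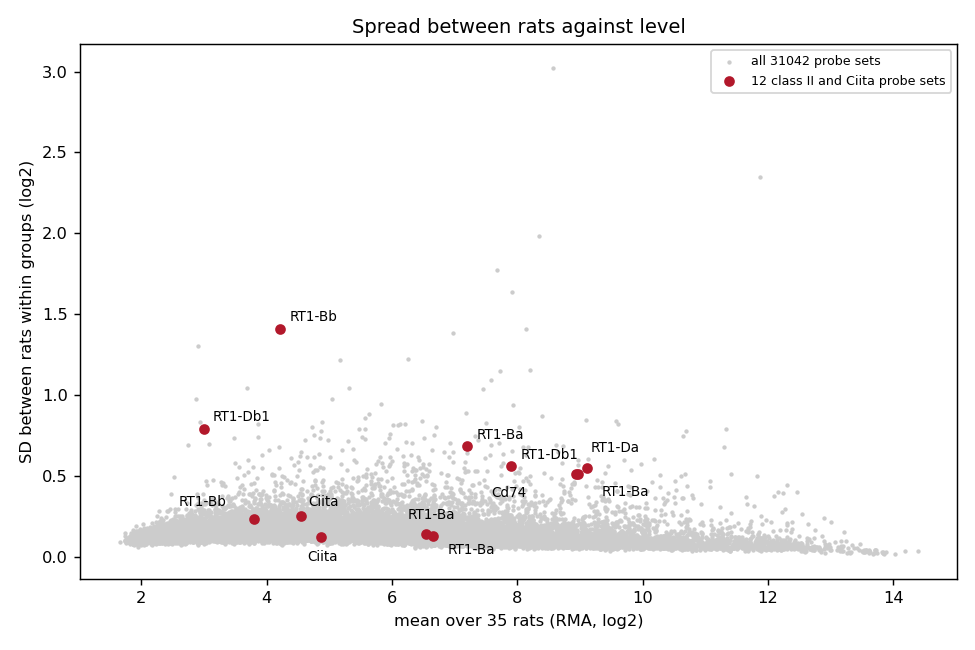
SD between rats within groups (log2, vertical axis) against the mean over 35 rats (log2, horizontal axis) for all 31042 probe sets, in grey, and the 12 class II and Ciita probe sets, in red. RT1-Bb 1371033_at has an SD of 1.41, while RT1-Da, Cd74, RT1-Db1 1370383_s_at, RT1-Ba 1377334_at and RT1-Ba 1370822_at lie between 0.51 and 0.68.

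The spread between rats was wide for most class II probe sets, and the 2 Ciita probe sets differed in it. The SD within groups (log2, 29 residual degrees of freedom) was 1.41 for RT1-Bb 1371033_at, rank 6 of 31042, where the 500 probe sets nearest in mean had a median SD of 0.16. It was 0.79 for RT1-Db1 1370382_at (dim in all but 3 rats), 0.68 for RT1-Ba 1370822_at and 0.56 for RT1-Db1 1370383_s_at. RT1-Da had 0.55, and Cd74 and RT1-Ba 1377334_at both had 0.51. These 7 of the 12 probe sets were in the top 1% of all by SD, which began at 0.43, and the median of all was 0.14. Ciita had 0.12 on 1369214_a_at, at percentile 27.3 of all probe sets, and 0.25 on 1379381_at, at percentile 94.7. Ciita lay near the array medians: 31 of 35 rats on the first probe set and 8 of 35 on the second were above the lowest array median, so its spread is measured close to background.

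Cd74, RT1-Da and RT1-Db1 rose and fell together from rat to rat. With group means removed, r over the 35 rats was 0.987 for RT1-Da with Cd74 (rho = 0.970), 0.986 for RT1-Da with RT1-Db1 (rho = 0.976) and 0.984 for RT1-Db1 with Cd74 (rho = 0.978). Each had a two-sided permutation p of 1e-05, the smallest that 100000 shuffles within dose groups can give, for r and for rho, and an adjusted permutation p of 3.33e-05 over 10 pairs of genes. Without the 2 rats farthest from the median, r stayed between 0.980 and 0.981. These 3 transcripts thus ranked the rats in nearly the same order.

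RT1-Ba (1377334_at) correlated with the same genes at 0.691 for RT1-Da, 0.673 for RT1-Db1 and 0.699 for Cd74 over all rats (adjusted permutation p = 0.0001 each). Those values run across the 2 bands described above. The sets were drawn on RT1-Bb's values, so r inside them is given without a test. Within the 10 rats r with Cd74 was 0.988 (rho = 0.961) and within the 25 it was 0.977 (rho = 0.952). Without the 2 farthest rats r was 0.970 and 0.975. RT1-Ba 1370822_at gave 0.959 within the 10 rats (rho = 0.915) and 0.791 within the 25 (rho = 0.853). Within either set, the rats with more Cd74 thus had more RT1-Ba signal on these probe sets. The other RT1-Ba probe sets did not pass the permutation test with Cd74 over the 35 rats. Their r was -0.341 on 1392334_at (adjusted permutation p = 0.0872 over 4 further probe sets) and -0.220 on 1381593_x_at (adjusted permutation p = 0.294).

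RT1-Bb 1371033_at is described inside each set of rats without a test, because its own values drew the sets. Among the 10 rats above the gap its r was 0.953 with Cd74 (rho = 0.939, and r = 0.875 without the 2 farthest rats), 0.968 with RT1-Da and 0.968 with RT1-Db1 1370383_s_at. With RT1-Ba it was 0.957 on 1377334_at and 0.905 on 1370822_at, with Ciita 0.683 on 1379381_at and 0.273 on 1369214_a_at. Among the 25 rats below the gap, where the probe set was dim, r with Cd74 was -0.371 (rho = -0.387), and over the 11 other probe sets r ran from -0.387 to 0.326. No r over all rats is given as a result for RT1-Bb, because the rats fall into separate sets. The dim RT1-Bb probe set 1371065_at had r = 0.590 with Cd74 over the 35 rats (rho = 0.571, adjusted permutation p = 0.00186 over 4 further probe sets). Inside the sets, without a test, r was 0.874 in the 10 (rho = 0.745) and 0.681 in the 25 (rho = 0.669).

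Ciita, the common coactivator, gave different answers on its 2 probe sets. On 1369214_a_at, which has the higher mean, r with RT1-Ba, RT1-Da, RT1-Db1 and Cd74 was 0.105, -0.188, -0.155 and -0.145, with adjusted permutation p between 0.414 and 0.570. On 1379381_at r with Cd74 was 0.677 (rho = 0.668, adjusted permutation p = 0.00048 over 4 further probe sets; r = 0.587 without the 2 farthest rats). Within the 25 rats this second value was 0.619 and within the 10 it was 0.630, both given without a test. The suffix a marks probes that read alternative transcripts of 1 gene. Which probe set reads the Ciita transcripts of liver was not tested.

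**Figure D4:**
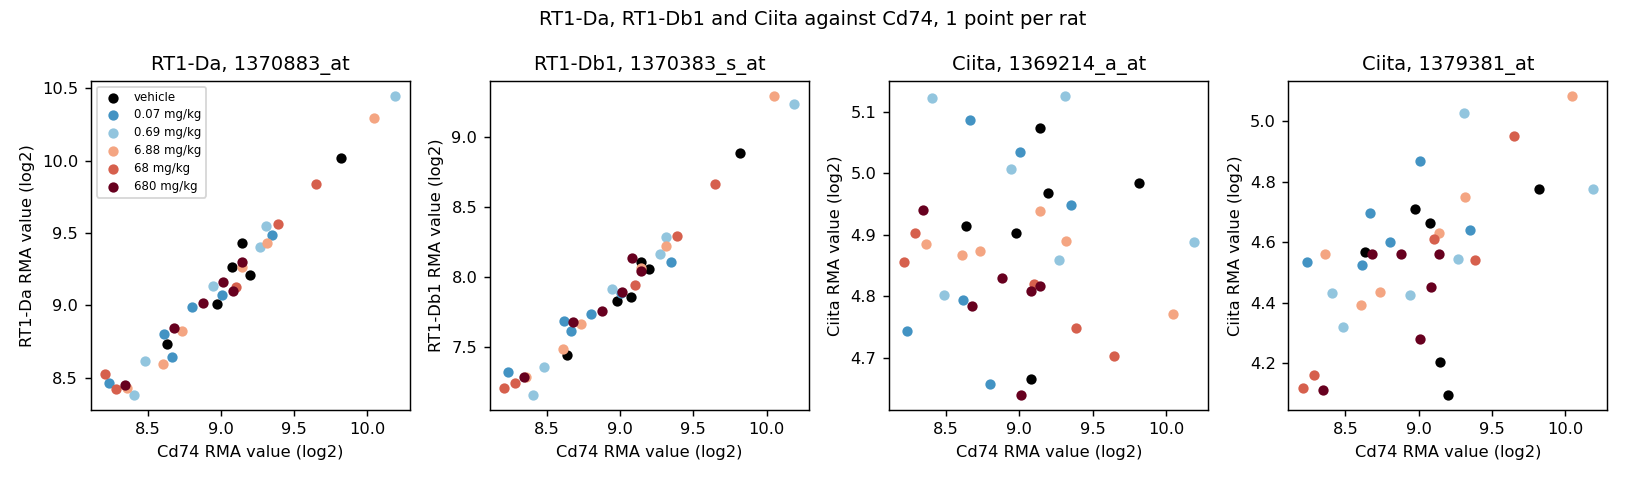
RMA values (log2) of RT1-Da, RT1-Db1 and both Ciita probe sets (vertical axes) against Cd74 (horizontal axes), with 1 point per rat coloured by group. RT1-Da and RT1-Db1 lie close to a line (r = 0.987 and 0.984 with group means removed), Ciita 1379381_at is looser (0.677), and Ciita 1369214_a_at shows no line (-0.145), with rats of all groups along each range.

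The other parts of the class II pathway followed Cd74 to different degrees. The mean of 9 antigen loading genes, which cut proteins and load the peptides, had r = 0.924 with Cd74 (adjusted permutation p = 4e-05 over 28 tests), and 6 of the 9 had r above 0.5, where 3.49% of all genes did. RT1-DMa and RT1-DMb, the chains that exchange the invariant chain fragment for peptide, had r = 0.863 and 0.836, and the protease Ctss, which cuts the invariant chain, had 0.866. The 13 transcription genes had a median r of 0.07 and a list r of 0.358 (adjusted permutation p = 0.077). In that list the RFX subunits Rfx5, Rfxap and Rfxank had 0.202, 0.067 and -0.250. The NF-Y subunits Nfya, Nfyb and Nfyc had -0.209, -0.004 and -0.100. The list's 1 gene with r above 0.5 was Irf8, a factor of the macrophage and dendritic lineages, at 0.774.

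Markers of macrophages and interferon targets moved with Cd74 as lists. The 16 macrophage markers had a list r of 0.871 (rho = 0.878, adjusted permutation p = 4e-05) and 13 of 16 had r above 0.5. Among them Clec4f, a Kupffer cell lectin, read 8.86 to 10.27 with r = 0.806. Csf1r, the receptor that macrophages need to survive, read 6.82 to 7.96 with r = 0.910. The list mean ran from 7.92 to 8.44 in vehicle rats, 7.84 to 8.39 at 0.07, 7.59 to 8.60 at 0.69, 7.80 to 8.59 at 6.88, 7.59 to 8.35 at 68 and 7.98 to 8.37 at 680 mg/kg. Each group therefore held rats with high and low macrophage signal. In whole liver RNA fewer macrophages and less class II RNA per macrophage cannot be told apart.

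The interferon gamma list of 18 genes had r = 0.834 with Cd74, the type I interferon list of 20 genes 0.820 and the class I list of 20 genes 0.838, each with an adjusted permutation p of 4e-05. In that order, 8 of 18, 16 of 20 and 11 of 20 single genes had r above 0.5. The median r over each list was 0.411, 0.671 and 0.528. Gbp2, a GTPase induced by interferon gamma, had 0.896 and the chemokine Cxcl9 had 0.750, while Ifng itself, Gbp4 and Ido1 were dim on average. The means of the T and NK cell markers and of the dendritic cell markers had 0.757 and 0.739 (adjusted permutation p = 4e-05 each), but their single genes followed less closely, with a median r of 0.292 and 7 of 18 above 0.5 in the former and 0.258 and 3 of 11 in the latter. The mean of the sinusoidal endothelial markers had 0.448 (adjusted permutation p = 0.0414). The B cell markers had 0.304 (adjusted permutation p = 0.262), with 1 of 12 genes above 0.5 and Ms4a1 (CD20) at 0.139. Cholangiocyte, blood and hepatocyte lists had r of -0.069, -0.151 and -0.051. The difference between the 3′ and 5′ control probe sets of Actb, a sign of RNA quality, had r = -0.487 (adjusted permutation p = 0.0235). For Ciita 1369214_a_at no list passed the threshold, with adjusted permutation p from 0.118 to 0.847. The part of these markers and of RNA quality in the class II correlations was not tested.

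The genes most like each member were ranked by r over 35 rats with group means removed, among 14211 other genes. For Cd74 these were Fgl2 (0.940), Ly86 (0.921), Slc8a1 (0.914), Csf1r (0.910), Tyrobp (0.903) and Gbp2 (0.896), where the top 1% of genes began at 0.733. For Ciita 1369214_a_at they were Ube2ql1 (0.729), Fcgbpl1 (0.723), Btbd8 (0.718), Pcsk4 (0.706), Sox11 (0.703) and Cfap126 (0.694), with the top 1% from 0.517. Of these, Ube2ql1, Fcgbpl1, Btbd8 and Sox11 were dim on average, with means of 4.66, 2.21, 4.47 and 2.89. None of the genes on the Cd74 list was on the Ciita list, but lists this short from 14211 genes would rarely share one by chance. The lack of a shared gene thus does not tell whether Ciita and Cd74 have different neighbours. Ciita 1379381_at, whose r with Cd74 was 0.677, was not ranked in this way.

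For RT1-Bb 1371033_at the same ranking mainly reads which rats lie above the gap, and it is given as an order only. It began with RT1-DMb and RT1-DMa, both on chromosome 20 some genes away from RT1-Bb, followed by Pdcd2, Mad2l2, Rassf4 and Smad2 on chromosomes 1, 5, 4 and 18. Of the 10 rats above the gap, 9 were among the 10 highest for RT1-DMb and 6 for RT1-DMa. RT1-DMb read 7.07 to 7.85 in the 10 rats and 6.48 to 7.26 in the 25, which overlap. The immunoproteasome genes Psmb8 and Psmb9, which lie between, had 7 and 6 of these rats among their 10 highest. Tap2, a peptide transporter subunit, had 5. Tap1, the other subunit, had 5 on its brighter probe set and 1 on its dimmer one, and RT1-Da and RT1-Db1 1370383_s_at had 4 each. RT1-Ba 1377334_at had 2, and 6 of the 10 rats were among its 10 lowest. Apart from RT1-Bb 1371033_at and RT1-Ba 1370822_at, none of these genes of the region divided the rats by its values. Genes on other chromosomes had like counts: Mad2l2, Rassf4 and Smad2 had 6 each, and Pdcd2 and Cd74 had 5 each. Counts of 5 or 6 were thus not particular to the region, and the share over all probe sets was not counted.

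The doses did not separate the class II genes from vehicle. By limma's moderated test with Benjamini-Hochberg adjustment over 31042 probe sets, 0 of 12 probe sets were called at any of the 5 doses, in the trend over dose rank or in the F test over the 5 doses. In each of these 7 comparisons 0% of all probe sets were called. An unmoderated analysis of variance called 0 as well. At an unadjusted p under 0.05, limma had 1130, 981, 1438, 1205 and 1538 of all probe sets at the 5 doses in rising order, 1549 in the trend and 1194 in the F test. For the 12 class II and Ciita probe sets that count was 0 at each dose and in the F test and 1 in the trend. That one was Ciita 1369214_a_at, with a slope of -0.03 per dose step (limma adjusted p = 0.992).

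RT1-Bb 1371033_at had group means of 4.35 ± 1.70 (SD, n = 6) in vehicle, 4.34 ± 1.33 at 0.07, 4.14 ± 1.55 at 0.69, 4.77 ± 1.72 at 6.88, 3.50 ± 0.21 (n = 5) at 68 and 4.10 ± 1.23 at 680 mg/kg. These means mostly count high rats, of which there were 2, 2, 1, 3, 0 and 2. The largest difference from vehicle was -0.85 at 68 mg/kg, with a 95% confidence interval of -2.45 to 0.74 (limma adjusted p = 0.999 or above for all 5 doses). Without vehicle replicate 4 it was -0.35, and without vehicle replicate 1 it was -0.50, and in both cases the difference at 6.88 mg/kg was then larger, at 0.93 and 0.78. Single rats set the sign at other doses. At 6.88 mg/kg the difference was 0.42, and -0.06 without replicate 4. At 680 mg/kg it was -0.25, and 0.25 without vehicle replicate 4. At 0.69 mg/kg it was -0.21, and 0.29 without vehicle replicate 4. It kept its sign there without replicate 1, at -0.84.

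Cd74, the invariant chain, had group means of 9.14 ± 0.39 in vehicle, 8.78 ± 0.38, 9.10 ± 0.66, 9.03 ± 0.61, 8.93 ± 0.65 (n = 5) and 8.86 ± 0.30 with rising dose (SD, n = 6 otherwise). At 680 mg/kg the rats read 9.14, 9.01, 8.68, 8.34, 8.88 and 9.08, against 9.20, 8.98, 8.64, 9.82, 9.08 and 9.14 in vehicle, so the groups overlapped. The difference there was -0.28 (95% confidence interval -0.84 to 0.27), a fold of 0.821 with an interval of 0.559 to 1.21. RT1-Da had means of 9.28 ± 0.43 in vehicle, then 8.91, 9.25, 9.14 and 9.10 with rising dose, and 8.98 ± 0.30 at 680 mg/kg. For RT1-Db1 1370383_s_at they were 8.03 ± 0.48, then 7.72, 8.02, 8.00 and 7.87, and 7.80 ± 0.30. For RT1-Ba 1377334_at they were 9.002 ± 0.34, then 8.71, 9.18, 8.87 and 9.16, and 8.76 ± 0.55. The means thus did not fall in order of dose. Single rats moved the differences at 680 mg/kg. Without vehicle replicate 4 they were -0.15 for Cd74, -0.15 for RT1-Da and -0.06 for RT1-Db1 1370383_s_at, against -0.28, -0.30 and -0.23 with all rats. Without replicate 4 of the 680 mg/kg group they were -0.18, -0.19 and -0.13. RT1-Ba 1377334_at moved from -0.24 to -0.11 without replicate 3 of that group, to -0.14 without its replicate 2, and to -0.37 without its replicate 1 or without vehicle replicate 1. None of these differences passed limma's test. Ciita 1369214_a_at had group means of 4.92 in vehicle and 4.88, 4.97, 4.87, 4.81 and 4.80 with rising dose. On Ciita 1379381_at they were 4.50 in vehicle and 4.64, 4.59, 4.64, 4.48 and 4.42.

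**Figure D5:**
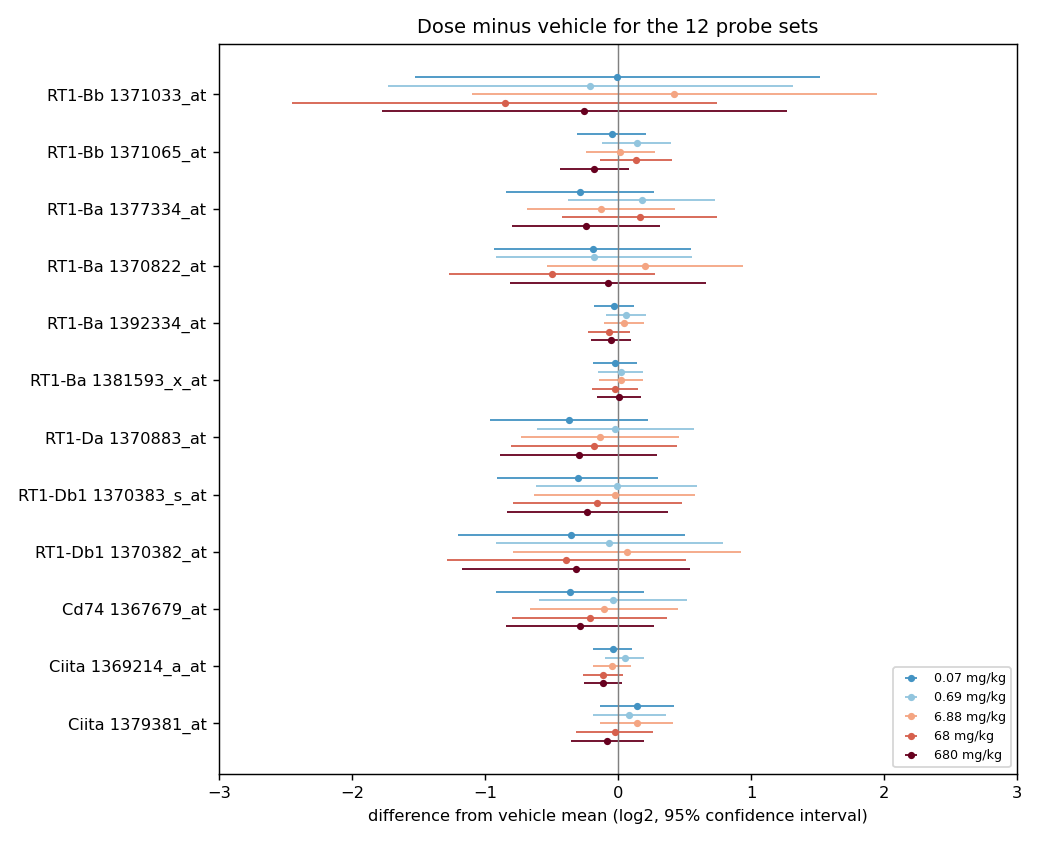
Difference of each dose from vehicle (log2, horizontal axis, points) with its 95% confidence interval (lines) for the 12 class II and Ciita probe sets (rows), coloured by dose in mg/kg. Every interval includes 0, and those of RT1-Bb 1371033_at are the widest, from -2.45 to 0.74 at 68 mg/kg.

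In direction, 11 of 12 probe sets were lower than vehicle at 0.07 and at 680 mg/kg and 10 of 12 at 68 mg/kg, with medians of -0.12, -0.20 and -0.13. At 0.69 mg/kg 6 were higher and 6 lower, and at 6.88 mg/kg 7 were higher and 5 lower, with medians of 0.00 and 0.02. Over all probe sets the medians were 0.00 at every dose, with 48.3% to 49.5% higher. These counts and medians rest in part on single rats. Without vehicle replicate 4, the lower ones were 9 of 12 at 0.07, 8 at 68 and 8 at 680 mg/kg, with medians of -0.02, -0.04 and -0.05, and 0 and 2 of 12 were lower at 0.69 and 6.88 mg/kg. Without replicate 2 of the 68 mg/kg group 7 were lower there, and without replicate 4 of the 6.88 mg/kg group 9 were lower at that dose. Over all rats left out in turn, 8 to 11 were lower at 0.07, 0 to 7 at 0.69, 2 to 9 at 6.88, 7 to 11 at 68 and 8 to 12 at 680 mg/kg. All doses share the same 6 vehicle rats, and the class II probe sets move together between rats, so these counts are not independent. The macrophage markers were lower than vehicle in 15, 15, 14, 15 and 14 of 16 at the 5 doses in rising order, with medians of -0.18, -0.08, -0.09, -0.30 and -0.09 and 0 called. Their part in the direction of the class II probe sets was not tested.

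The other lists of the pathway also had 0 genes called at any dose. Antigen loading genes were lower in 7, 9, 7, 8 and 7 of 9 at the rising doses, and transcription genes were higher in 10, 8, 10, 9 and 8 of 13. Interferon gamma genes were lower in 9, 11, 8, 11 and 11 of 18, type I interferon genes in 13, 6, 4, 15 and 15 of 20, and class I genes in 13, 7, 4, 15 and 11 of 20. By the smallest F test p, the listed genes to name were Marchf1, a ligase that removes class II from the surface, and Ctsl, a protease, among the loading genes. At 680 mg/kg they differed from vehicle by -0.21 and -0.01. Rfx5, a subunit of the RFX factor, differed by 0.25 and the repressor Prdm1 by 0.17. Of the interferon list, Ido1 differed by 0.09 and Ifng by -0.08. The macrophage scavenger receptors Mrc1 and Cd163 differed by 0.00 and -0.13 there and by -0.25 and -0.38 at 68 mg/kg. Each of these 8 genes had a limma adjusted p of 1 in the F test, and Marchf1, Prdm1, Ido1 and Ifng were dim on average.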

How the data were processed

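Each sample is liver RNA on 1 single-colour Affymetrix 3′ array, counted as 1 rat and hybridised from 100 ng of RNA whose integrity number was 7.0 or more, per the labels' protocols. The authors' deposited values are log2 expression per probe set, processed with RMA and the affy package per the submitters' processing notes, with versions not stated. Base 2 is assumed from RMA's convention. RMA's quantile step removes shifts common to most transcripts, and its background correction shrinks differences among dim probe sets. Precision is limited by the number of arrays.

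Of 31099 probe sets, 57 controls were left out. Genes were named from the platform annotation, where 20826 probe sets had 1 symbol, 436 several and 9780 none. Each gene was represented by its probe set of highest mean. Groups were taken from the labels and compared with limma 3.58.1 in R 4.3.3, in 1 linear model over all 35 arrays, at an adjusted p of 0.05 after Benjamini-Hochberg adjustment over all probe sets. The series design names R/maanova, which was not used here. Correlations used SciPy 1.17.1 and NumPy 2.4.6 in Python 3.11.15, with group means removed and 100000 shuffles within dose groups. Inside the sets of 10 and 25 rats group means were kept and no test is given. Those sets were drawn at the widest gap of RT1-Bb after its values had been seen. The rule for further genes named took the 6 genes of highest r with RT1-Bb, Cd74 and Ciita and the 2 of smallest F test p in each list where none was called; other genes were picked from the lists for their role. The genes followed and the lists were chosen with earlier results of these data known. The fit was tested on simulated data for 680 mg/kg against vehicle over 31042 probe sets. It recovered 47 of 50 changes of 0.5 (log2) and 49 of 50 of 1. All 50 of 2 and of 3 were recovered, with 9 false calls. The changed probe sets were drawn at random, and the median SD of all probe sets was 0.14. Cd74 had an SD of 0.51 and RT1-Bb 1371033_at of 1.41, so these recoveries do not apply to them. Recovery of changes in the class II probe sets was not tested. Alternatives covered filtering, normalisation, the test, the probe set, the replicate number as a block and leaving out each rat.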

Additional observations from a re-analysis of the deposited data

Results flagged for a closer look

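RT1-Bb 1371033_at was left out here, since its spread had chosen the gene. Of 66 combinations of the 11 other probe sets with the 6 groups, 5 held a rat whose distance from the next, relative to the group's range, was past the 95% limit for a single outlying value, where chance alone flags about 1 in 20. Replicate 1 at 0.69 mg/kg stood apart on 2 probe sets: RT1-Ba 1370822_at at 8.83 with the next rat at 7.05 and RT1-Db1 1370382_at at 5.53 with the next at 2.90. It was the only rat of its group above the RT1-Bb gap, and it had the highest Cd74 of all 35 rats. Replicate 4 at 6.88 mg/kg stood apart on RT1-Db1 1370382_at, at 5.37 with the next rat at 3.16. The remaining ones were small distances: vehicle replicate 6 on RT1-Bb 1371065_at at 4.003, with the next at 3.81, and vehicle replicate 1 on RT1-Ba 1381593_x_at at 6.40, with the next at 6.54.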

How the results depend on the processing

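The number of class II and Ciita probe sets called was 0 at each dose, in the trend and in the F test under every alternative that was run. The number of correlated pairs was 6 of 10 with group means kept, arrays centred on their medians or Spearman's rho, and 9 with another probe set of the gene. There Ciita changed sign: r became 0.66 with RT1-Da and 0.68 with Cd74 (adjusted permutation p = 0.00035 each). With RT1-Db1, whose probe set was exchanged as well, r became 0.42 (adjusted permutation p = 0.0322). The cause of this change was not tested. RT1-Ba 1370822_at and RT1-Db1 1370382_at were among the exchanged probe sets, so their r in this count ran over rats that fall into separate sets. Leaving out each rat in turn kept 0 calls, 6 pairs and 7 probe sets in the top 1% by SD, and the SD of RT1-Bb 1371033_at ran from 1.28 to 1.44. With the replicate number as a block the SD of RT1-Bb was 1.35, with 0 probe sets called and 6 pairs. By the correlation of deviations, same-numbered arrays were not more alike than others. Over 85 same-numbered pairs the median was -0.02 and 8 were over 0.1. Over 425 pairs of different number the median was 0.002 and 66 were over 0.1. Dim signal limits RT1-Bb 1371033_at in 25 rats, RT1-Bb 1371065_at in all 35, RT1-Db1 1370382_at in all but 3 and Ciita 1379381_at in all but 8.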
